A study of Mus musculus with 12 samples.

Results

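Interferon-stimulated genes are the genes that cells switch on when interferon binds its receptors. The 44 genes described here were chosen by symbol with earlier results of these data known, so no test over the list was made. All 44 were found among the 30199 genes of the deposited expression table of a mouse heart study. All 44 passed the filter on low counts. Gene expression was measured by sequencing of poly(A) RNA from hearts of C57BL/6J mice, in 12 libraries with 3 in each of 4 groups. The groups were control hearts (labelled ctrl), hearts labelled plx3397, hearts labelled sorafenib, and hearts labelled with both agents. Sorafenib was given for 28 days with or without an agent meant to clear macrophages, per the series' design text. All groups share the strain, and the labels give no dose, route, sex or age, nor the number of mice behind each library. Sorafenib is an oral kinase inhibitor used against cancer. PLX3397 inhibits CSF1R, a receptor on which many tissue macrophages depend.

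Type I interferons signal through IFNAR1 and IFNAR2 and the kinases JAK1 and TYK2, which activate a transcription factor complex that includes STAT2 and IRF9. This complex binds the interferon-stimulated response element (ISRE) in the promoters of its target genes, while interferon gamma acts mainly through the gamma-activated site (GAS). The products sense viral nucleic acids, block viral entry and replication, attack the vacuoles of intracellular pathogens and attract lymphocytes. Resident cells express many of these genes at a basal level without infection, and macrophages are among the cells with a strong basal and induced expression.

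Promoters are shown for members that hold the ISRE core, in the order of their smallest p-values, to let the element be seen. Irf7 and Oasl1, which also had small p-values, hold no match in their windows and are not shown. RefSeq promoter windows (build GRCm38.p6, 250 bases before to 50 bases after the gene's start, 300 bases) were found for 33 of the 44 members. The ISRE core, which is GAAA, then 2 bases of any kind, then GAAA, read on both strands, was present in 21 of the 33 (63.6%), against 3.44% of all 32851 windows and 3.99% of 27025 genes. The GAS core TTCNNNGAA, which reads the same on both strands and can share bases with the ISRE core, was present in 11 of the 33 (33.3%), against 8.3% of all windows. All 7 GTPase members with a window held the ISRE core, as did 14 of the 26 other members. It was present in 5 of 9 members that passed the test in at least 1 comparison and in 16 of 24 that passed in none. The 250 bases before the start follow for Bst2 (chr8:71537473-71537722), Trim30a (chr7:104465194-104465443) and Oas1a (chr5:120907526-120907775), all on the minus strand and written 5′ to 3′, with matches to the ISRE core in capitals.
Bst2: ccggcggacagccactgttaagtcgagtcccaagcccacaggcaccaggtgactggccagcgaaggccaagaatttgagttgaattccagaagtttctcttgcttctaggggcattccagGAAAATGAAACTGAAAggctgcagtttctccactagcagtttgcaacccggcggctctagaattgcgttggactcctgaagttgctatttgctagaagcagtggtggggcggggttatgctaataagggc
Trim30a: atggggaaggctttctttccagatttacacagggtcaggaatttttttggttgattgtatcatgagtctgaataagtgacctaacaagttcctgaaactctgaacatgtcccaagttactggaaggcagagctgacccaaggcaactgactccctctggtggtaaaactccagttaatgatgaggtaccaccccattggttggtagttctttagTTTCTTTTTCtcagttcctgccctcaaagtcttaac
Oas1a: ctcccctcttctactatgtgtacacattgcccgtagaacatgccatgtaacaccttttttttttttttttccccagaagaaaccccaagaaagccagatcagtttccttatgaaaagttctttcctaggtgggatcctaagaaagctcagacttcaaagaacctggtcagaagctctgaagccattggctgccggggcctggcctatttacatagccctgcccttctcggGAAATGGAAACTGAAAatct
The Bst2 stretch holds 2 overlapping matches, which begin 130 and 124 bases before the start, and that of Oas1a holds 2 overlapping matches at 20 and 14 bases. In Trim30a the single match lies on the opposite strand, 36 bases before the start. Ifitm3 has 2 matches just after its annotated start, and for that gene only the site is shown (chr7:141010716-141010742, minus strand). The sites of the guanylate-binding protein genes Gbp5 (chr3:142496761-142496786) and Gbp7 (chr3:142530275-142530300), both on the plus strand, were chosen after their values were seen. The RefSeq start used for Gbp5 lies downstream of the start in the deposited table. These matches describe the letters only and were not tested for binding.
Ifitm3: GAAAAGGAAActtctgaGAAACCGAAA
Gbp5: ttgtgtagTTTCAATTTCagtttaga
Gbp7: gtgtgcagTTTCAGTTTCagttctcc

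The libraries held 61626404 to 64537365 estimated counts each, and single members had between 5 and 5000 counts in a library. Levels below are CPM, each count divided by the scaled library size, in the order of replicates 1 to 3. A difference is given as its log2 fold change ± SE, from 3 libraries in each group. Adjusted p-values come from edgeR's quasi-likelihood test over all 18897 genes tested. A gene is called, or said to have risen or fallen, where this adjusted p is under 0.05. Nothing in the labels says that libraries of a group come from separate animals, so the p-values measure only the spread between these samples. Before any result, the libraries labelled PLX3397 go against the label in 1 respect. The summed level of 30 resident macrophage markers was 622 to 665 CPM in them and 616 to 729 CPM in controls, so these groups overlapped. In libraries labelled sorafenib the sum was 358 to 507 CPM, and in those labelled with both agents it was 320 to 371 CPM. In bulk heart RNA, fewer cells of a type and less RNA per cell cannot be told apart.

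Interferon-stimulated genes were lowest in the hearts given both agents. The group mean was lowest with both agents in 34 of 44 members and highest with PLX3397 alone in 34 of 44. Over all genes tested, the both-agent group was lowest in 31.6% and the PLX3397 group highest in 18.7%. The mean of the 44 genes on the log2(CPM + 0.1) scale, relative to the control mean, was 0.05, -0.12 and 0.07 in the controls and 0.31, 0.20 and -0.03 with PLX3397. For sorafenib the values were -0.34, 0.01 and -0.13, and for both agents -0.33, -0.51 and -0.32. The both-agent values lay below those of all controls and all PLX3397 libraries, but sorafenib replicate 1 lay among them.

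**Figure D1:**
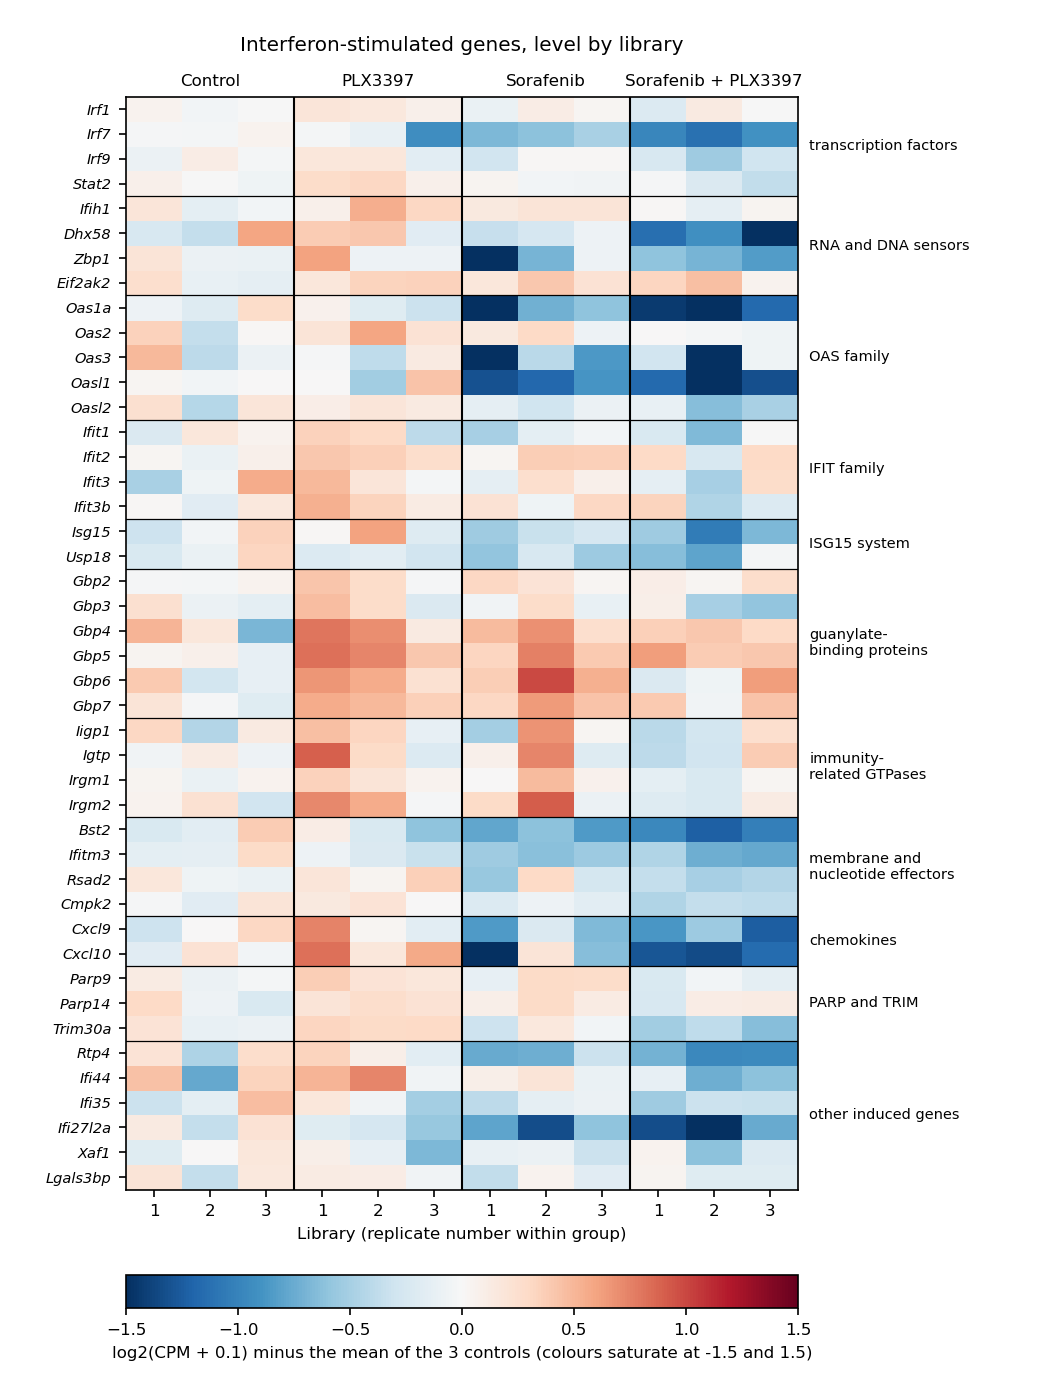
Level of each of the 44 genes (vertical axis, grouped by role) in each of the 12 libraries (horizontal axis), as log2(CPM + 0.1) relative to the average control level, with blue for lower and red for higher. The both-agent columns are mostly blue, and PLX3397 replicate 3 is paler or bluer than replicates 1 and 2.

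Compared with controls, hearts labelled sorafenib had 3 members called, all lower (Ifitm3, Bst2 and Oasl1), against 2.65% of all genes called in either direction, 1.14% called lower and 1.5% called higher. The median of the 44 log2 fold changes was -0.07, against -0.02 over all genes, and 25 of 44 lay below 0 (51.8% of all genes). Single libraries decided this count. It was 0 without control replicate 3 or without any single sorafenib replicate, 1 without control replicate 2, both-agent replicate 1 or both-agent replicate 2, and 5 without PLX3397 replicate 1. Calls over all genes moved too, from 500 to 45 without control replicate 3, to 27, 183 and 474 without sorafenib replicates 1, 2 and 3, to 101 without control replicate 2, to 354 and 312 without both-agent replicates 1 and 2, and to 1281 without PLX3397 replicate 1.

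With PLX3397 alone, 0 members were called, as were 0% of all genes, by edgeR's quasi-likelihood test. DESeq2 and limma also called 0 members, while over all genes the Wald test of DESeq2 called 102 and limma 2. Without PLX3397 replicate 1, edgeR called 578 of all genes and 0 members. At an unadjusted p under 0.05 there were 4 members, all 4 above control (7.13% of all genes, with 5.17% below). The median was 0.19, against -0.01 over all genes, with 35 of 44 above 0, while 51.5% of all genes were below 0. In 7 members all 3 PLX3397 libraries lay above all 3 controls (7.73% of all genes), and in 1 member they lay below (7.31%).

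Adding PLX3397 to sorafenib gave 0 called members, and 0% of all genes, by edgeR. DESeq2 and limma also called 0 members, while the Wald test of DESeq2 called 65 of all genes. At an unadjusted p under 0.05 there were 6, all lower, against 3.53% of all genes lower and 2.91% higher. The median was -0.25, against -0.00 over all genes, and 40 of 44 lay below 0 (50.2% of all genes). The libraries did not overlap, with the both-agent group lower, in 7 members (6.21% of all genes) and with that group higher in 0 (6.39%).

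Between both agents and PLX3397 alone, 9 members were called, all lower, against 3.23% of all genes in either direction, 2.23% lower and 1.01% higher. At an unadjusted p under 0.05 there were 23, against 8.98% of all genes lower and 6.97% higher. All 44 log2 fold changes were below 0, with a median of -0.42 (-0.00 over all genes, 50.5% below 0). The libraries did not overlap in 23 members, all lower (11.5% of all genes). The number called depended on single libraries: it was 1 without PLX3397 replicate 1, 2 without PLX3397 replicate 2, 1 without both-agent replicate 1, and 3 without both-agent replicate 2 or 3. Over all genes the calls went from 611 to 204, 314, 177, 391 and 313 in the same order.

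Between both agents and control, 12 members were called, 11 lower and 1 higher. In that comparison 16.1% of all genes were called, 8.14% lower and 7.97% higher. The median was -0.30 (-0.02 over all genes), and 37 of 44 lay below 0 (52% of all genes). The libraries did not overlap, with both agents lower, in 17 of 44 members (19% of all genes). With both agents higher this held in 1 of 44 (16.6% of all genes). Without control replicate 3 the number of members called was 6, and that over all genes went from 3046 to 1261. Most of these comparisons share libraries, so their results are not independent. Over the comparisons, edgeR called 12 members at least once and 32 never. The 12 were those called between both agents and control, where 16.1% of all genes were called. The share of all genes called at least once was not counted. Of those 32, the Wald test of DESeq2 called Irf9, Stat2, Rsad2, Cxcl10, Isg15, Gbp6 and Gbp7 in at least 1 comparison, and limma with a pseudocount of 0.1 called the first 5 of these.

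**Figure D2:**
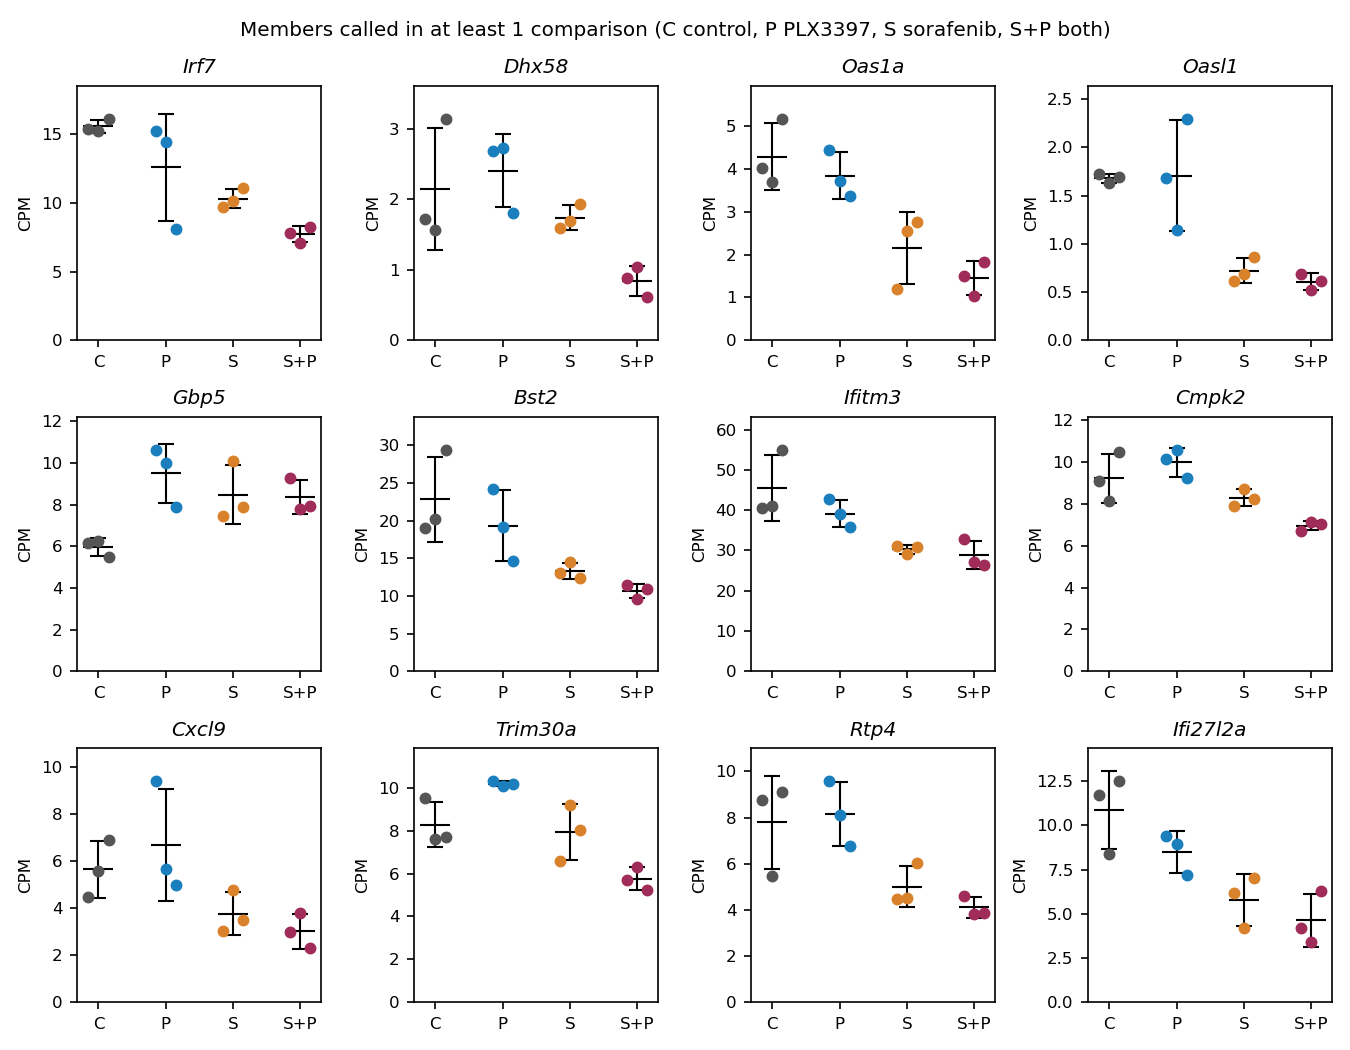
CPM (vertical axes, starting at 0) of the 12 genes called in at least 1 comparison, in controls (C), PLX3397 (P), sorafenib (S) and both agents (S+P). Points are libraries and bars are the mean ± SD of 3. In all panels but Gbp5 the both-agent points lie below the control points. In Gbp5 the control points lie lowest.

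The antiviral membrane and nucleotide effectors held 3 of the 12 called genes. Ifitm3, whose product blocks fusion of viruses in endosomes, was the highest member per length, with a mean of 49.1 FPKM over the 12 libraries. It stood at 40.6, 41.1 and 54.9 CPM in controls, 42.7, 38.9 and 35.9 with PLX3397, 31.0, 29.1 and 30.9 with sorafenib and 32.9, 27.2 and 26.5 under both agents. Every library with sorafenib, alone or combined, lay below every library without it. Ifitm3 fell with sorafenib (-0.59 ± 0.12, adjusted p = 0.0255) and with both agents versus control (-0.66 ± 0.12, adjusted p = 0.00387). Against PLX3397 alone the difference with both agents was -0.44 ± 0.12 (adjusted p = 0.0635).

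Bst2, also called tetherin, holds budding virions at the cell surface. Its levels were 19.1, 20.2 and 29.3 CPM in controls, 24.2, 19.1 and 14.7 with PLX3397, 13.02, 14.6 and 12.4 with sorafenib and 11.5, 9.57 and 10.99 under both agents. All both-agent libraries were below all sorafenib libraries, which in turn were below all controls. It fell with sorafenib versus control (-0.78 ± 0.18, adjusted p = 0.0402), with both agents versus PLX3397 (-0.86 ± 0.18, adjusted p = 0.0224) and with both agents versus control (-1.10 ± 0.18, adjusted p = 0.00233). The both-agent difference from sorafenib alone was -0.32 ± 0.18 (adjusted p = 0.835). Of 22 alternative settings, the call of sorafenib versus control was kept in 18 for Ifitm3 and in 12 for Bst2. Cmpk2, a mitochondrial nucleotide kinase gene, stood at 9.07, 8.11 and 10.5 CPM in controls, 10.1, 10.5 and 9.21 with PLX3397, 7.90, 8.71 and 8.20 with sorafenib and 6.70, 7.12 and 7.02 under both agents. The 3 both-agent libraries were below all 9 others. Cmpk2 fell with both agents versus PLX3397 (-0.52 ± 0.12, adjusted p = 0.0332) and versus control (-0.41 ± 0.12, adjusted p = 0.0379), calls kept in 13 and 11 of the 22 settings. Rsad2, the gene of the antiviral enzyme viperin, had differences of -0.63 ± 0.18 and -0.44 ± 0.18 in these comparisons and was not called by edgeR (adjusted p = 0.0753 and 0.111).

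The OAS family encodes enzymes that make 2'-5'-oligoadenylates upon binding double-stranded RNA, and related proteins without that activity. Oas1a stood at 4.01, 3.68 and 5.15 CPM in controls, 4.44, 3.71 and 3.36 with PLX3397, 1.20, 2.54 and 2.75 with sorafenib and 1.501, 1.04 and 1.84 under both agents. All libraries with sorafenib lay below all libraries without it, and those with and without PLX3397 overlapped within each pair. Oas1a fell with both agents versus PLX3397 (-1.39 ± 0.30, adjusted p = 0.0233) and versus control (-1.55 ± 0.30, adjusted p = 0.00532). With sorafenib alone the difference from control was -0.98 ± 0.30 (adjusted p = 0.0836). Its near copy Oas1g can share reads with it, so both values are uncertain. Oasl1, an inhibitor of Irf7 translation in mice, stood at 1.72, 1.63 and 1.69 CPM in controls, 1.68, 1.14 and 2.29 with PLX3397, 0.618, 0.686 and 0.863 with sorafenib and 0.692, 0.518 and 0.612 under both agents. Here too every library with sorafenib was below every library without it. Oasl1 fell with sorafenib (-1.22 ± 0.31, adjusted p = 0.04996), with both agents versus PLX3397 (-1.49 ± 0.31, adjusted p = 0.0192) and with both agents versus control (-1.47 ± 0.31, adjusted p = 0.00746). The sorafenib call was kept in 8 of 22 alternative settings. Oas2, Oas3 and Oasl2 were called by edgeR in no comparison, and Oas3 was the lowest member per length, with a mean of 0.0564 FPKM.

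Among the transcription factors of the response, Irf7 was called by edgeR and Irf1, Irf9 and Stat2 were not. Irf7, the factor that amplifies type I interferon production, stood at 15.3, 15.2 and 16.1 CPM in controls, 15.2, 14.4 and 8.13 with PLX3397, 9.71, 10.1 and 11.1 with sorafenib and 7.81, 7.09 and 8.22 under both agents. The controls lay within 1 CPM of each other, and PLX3397 replicate 3 lay among the both-agent libraries, far from the other two of its group. Irf7 fell with both agents versus control (-1.01 ± 0.18, adjusted p = 0.00328) and versus PLX3397 (-0.71 ± 0.18, adjusted p = 0.0459), and the latter call was kept in 7 of the 22 settings. With sorafenib alone it was -0.59 ± 0.18 (adjusted p = 0.0811), with all sorafenib libraries below all controls. Irf7 overlaps Phrf1 on the opposite strand, and reads of overlapping genes cannot be told apart without knowing how strand was used. Irf1, a factor induced mainly by interferon gamma and the highest of its role per length, stood at 20.5, 19.3 and 19.7 CPM in controls, 22.6, 22.1 and 20.9 with PLX3397, 18.6, 21.5 and 20.2 with sorafenib and 17.3, 21.7 and 19.7 under both agents. Its 3 PLX3397 libraries were above the controls by 0.14 ± 0.10 (adjusted p = 0.576), and the other groups overlapped. Stat2 and Irf9, members of the ISRE-binding complex, differed between both agents and PLX3397 by -0.42 ± 0.11 (adjusted p = 0.0546) and -0.43 ± 0.13 (adjusted p = 0.0868). The Wald test of DESeq2 called both (adjusted p = 0.0143 for Stat2 and 0.0366 for Irf9). Irf9 overlaps Rnf31 on the same strand (2.54 FPKM, beside 2.56 for Irf9), so its counts are uncertain.

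Of 4 sensor genes, Dhx58 was called. Dhx58, which encodes the RIG-I-like receptor LGP2, stood at 1.72, 1.57 and 3.13 CPM in controls, 2.69, 2.73 and 1.80 with PLX3397, 1.59, 1.70 and 1.93 with sorafenib and 0.877, 1.04 and 0.612 under both agents. The both-agent libraries lay below all 9 others, while the remaining groups overlapped. It fell with both agents versus PLX3397 (-1.51 ± 0.32, adjusted p = 0.0204) and versus control (-1.35 ± 0.32, adjusted p = 0.0128). The difference of -1.05 ± 0.32 from sorafenib alone did not pass (adjusted p = 0.585). Ifih1, the gene of the RNA sensor MDA5, stood at 8.05, 6.43 and 6.92 CPM in controls, 7.51, 10.4 and 8.85 with PLX3397, 7.87, 8.16 and 8.15 with sorafenib and 7.22, 6.47 and 7.30 under both agents. It was 0.32 ± 0.14 above control with PLX3397 (adjusted p = 0.385), and these groups overlapped. Eif2ak2, which encodes the RNA-activated kinase PKR, stood at 7.65, 5.94 and 5.82 CPM in controls, 7.21, 8.14 and 8.17 with PLX3397, 7.25, 8.52 and 7.45 with sorafenib and 8.05, 8.78 and 6.64 under both agents. All of its groups overlapped, and the difference between both agents and PLX3397 was -0.00 ± 0.15 (adjusted p = 0.994). Zbp1, a sensor of Z-form nucleic acids, was -0.98 ± 0.41 between those groups (adjusted p = 0.246).

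The interferon-inducible GTPases are 6 guanylate-binding proteins and 4 immunity-related GTPases that act on pathogen vacuoles. With sorafenib versus control their signs differed from those of most other members. All 10 were above 0 with sorafenib versus control (median 0.33) and all 10 with PLX3397 versus control (median 0.42). In the other 34 members, 25 were below 0 with sorafenib (median -0.19) and 25 were above 0 with PLX3397 (median 0.15). With sorafenib, 3 of 4 IFIT members and 2 of 3 PARP and TRIM members were also above 0. With both agents the 10 had a median of -0.29 relative to sorafenib alone, -0.32 relative to PLX3397 alone and 0.04 relative to control, and each of the 10 was below 0 in the first and in the second of these comparisons. The corresponding medians of the other 34 were -0.23, -0.48 and -0.44, with 30, 34 and 32 of them below 0. Relative to control, 5 of the 10 GTPases were below 0 with both agents. By edgeR none of the 10 was called in any comparison except Gbp5. The Wald test of DESeq2 called Gbp5, Gbp6 and Gbp7 higher with sorafenib versus control (0.51, 0.64 and 0.47, adjusted p = 0.0299, 0.0493 and 0.0339). The difference between the GTPases and the other members was not tested.

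Gbp5, which promotes inflammasome assembly, stood at 6.16, 6.28 and 5.48 CPM in controls, 10.6, 9.98 and 7.90 with PLX3397, 7.45, 10.1 and 7.88 with sorafenib and 9.29, 7.81 and 7.94 under both agents. All 9 treated libraries were above all 3 controls. Gbp5 rose with both agents versus control (0.48 ± 0.15, adjusted p = 0.0458), a call kept in 12 of 22 alternative settings. With PLX3397 alone it was 0.67 ± 0.15 (adjusted p = 0.361) and with sorafenib alone 0.51 ± 0.15 (adjusted p = 0.0855). Gbp7 stood at 13.5, 11.6 and 10.3 CPM in controls, 17.3, 16.5 and 15.1 with PLX3397, 14.6, 18.3 and 15.8 with sorafenib and 15.5, 11.3 and 15.8 under both agents. Each single agent put all libraries above the controls (0.46 ± 0.14 for both, adjusted p = 0.361 with PLX3397 and 0.0914 with sorafenib), whereas both-agent replicate 2 lay within the control range. Gbp2, the highest guanylate-binding protein gene per length, stood at 15.7, 15.5 and 16.4 CPM in controls, 21.1, 19.2 and 15.7 with PLX3397, 19.7, 18.3 and 16.2 with sorafenib and 16.9, 16.2 and 19.0 under both agents, and all groups overlapped.

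Iigp1, the immunity-related GTPase gene with the highest level per length, stood at 66.1, 39.3 and 58.9 CPM in controls, 73.4, 66.7 and 49.2 with PLX3397, 37.6, 85.7 and 54.6 with sorafenib and 40.2, 44.1 and 63.8 under both agents. The 3 sorafenib libraries alone spanned the values of all 9 others, and no comparison was called. Irgm1, a regulator of the other immunity-related GTPases, stood at 18.1, 16.4 and 18.3 CPM in controls, 22.3, 20.1 and 18.3 with PLX3397, 17.7, 24.4 and 18.4 with sorafenib and 15.9, 15.04 and 17.9 under both agents. Both-agent libraries were below all PLX3397 libraries (-0.31 ± 0.13, adjusted p = 0.239). Igtp and Irgm2 overlap each other on the same strand, so their separate values are uncertain. Sorafenib replicate 2 and PLX3397 replicate 1 were the high libraries. On the mean of the 10 GTPases they stood at 0.64 and 0.61 above the control mean (log2 scale), against 0.16 and 0.14 in sorafenib replicates 1 and 3 and 0.44 and 0.06 in PLX3397 replicates 2 and 3.

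**Figure D3:**
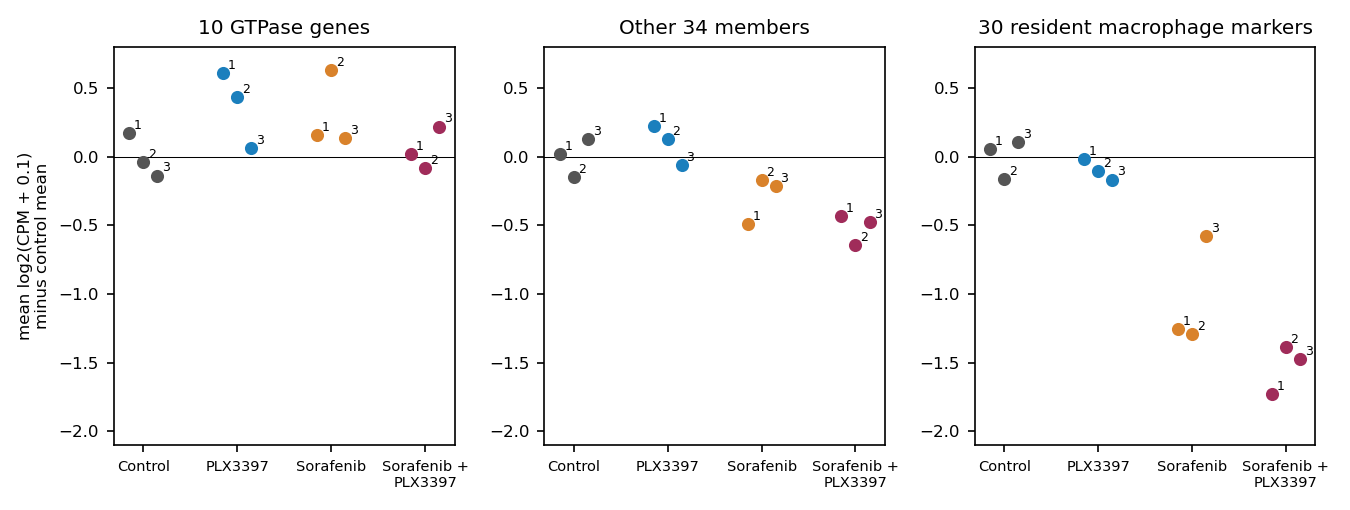
Mean of log2(CPM + 0.1) minus the control mean (vertical axes) in each library for the 10 GTPase genes, the other 34 members and 30 resident macrophage markers, with points numbered by replicate. The other 34 members are lowest in the both-agent libraries and in sorafenib replicate 1, the GTPases are not, and the macrophage markers separate all 6 libraries with sorafenib from all 6 without it.

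The IFIT family, whose products bind viral RNA and translation factors, had 0 of 4 members called in any comparison by edgeR's test. Ifit2 stood at 11.5, 10.5 and 11.97 CPM in controls, 15.1, 14.5 and 13.6 with PLX3397, 11.5, 14.7 and 14.5 with sorafenib and 13.97, 9.61 and 13.98 under both agents. Its PLX3397 libraries were all above the controls (0.34 ± 0.14, adjusted p = 0.378), and the both-agent libraries reached from below the controls into the PLX3397 range. Ifit3 stood at 5.76, 7.72 and 11.98 CPM in controls, 11.4, 9.22 and 7.96 with PLX3397, 7.37, 9.65 and 8.54 with sorafenib and 7.40, 5.71 and 9.83 under both agents, with all groups overlapping. Ifit3 and its near copy Ifit3b can share reads, so their separate values are uncertain. Isg15, a ubiquitin-like modifier, stood at 2.19, 2.68 and 3.53 CPM in controls, 2.79, 4.23 and 2.38 with PLX3397, 1.87, 2.16 and 2.29 with sorafenib and 1.87, 1.28 and 1.69 under both agents. The both-agent libraries were below all controls and all PLX3397 libraries, by -0.80 ± 0.27 (adjusted p = 0.0571) and -0.96 ± 0.27 (adjusted p = 0.0713), and neither passed by edgeR. Usp18, the protease that removes ISG15 and inhibits the receptor, was -0.48 ± 0.24 between both agents and control (adjusted p = 0.188).

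The chemokines Cxcl9 and Cxcl10 attract T cells through the receptor CXCR3. Cxcl9 stood at 4.47, 5.57 and 6.92 CPM in controls, 9.40, 5.68 and 5.00 with PLX3397, 3.04, 4.78 and 3.48 with sorafenib and 3.002, 3.78 and 2.30 under both agents. Its both-agent libraries lay below all controls and all PLX3397 libraries and overlapped those of sorafenib. Cxcl9 fell with both agents versus PLX3397 (-1.14 ± 0.27, adjusted p = 0.0338) and versus control (-0.90 ± 0.27, adjusted p = 0.0375). Cxcl10 had the largest difference of any member between both agents and PLX3397 (-2.19 ± 0.59) at a level of 0.234 FPKM and was not called by edgeR (adjusted p = 0.0579). It lies within Art3 on the opposite strand, a gene at 54.3 FPKM in these hearts, so its counts are uncertain.

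Trim30a, whose product restrains NF-kappa B signalling in mouse macrophages, stood at 9.51, 7.62 and 7.72 CPM in controls, 10.3, 10.1 and 10.2 with PLX3397, 6.60, 9.17 and 8.02 with sorafenib and 5.72, 6.31 and 5.25 under both agents. The PLX3397 libraries were above all controls, and the both-agent libraries below all of the others. Trim30a fell with both agents versus PLX3397 (-0.82 ± 0.15, adjusted p = 0.00812), the smallest adjusted p among members in that comparison and a call kept in all 22 alternative settings. It also fell versus control (-0.52 ± 0.15, adjusted p = 0.0270). Parp9, which acts with the ubiquitin ligase DTX3L, stood at 14.2, 12.3 and 12.8 CPM in controls, 16.9, 15.1 and 14.7 with PLX3397, 11.98, 16.0 and 15.8 with sorafenib and 11.1, 12.7 and 11.8 under both agents. The PLX3397 libraries were above all controls and all both-agent libraries, and the both-agent difference from PLX3397 was -0.39 ± 0.12 (adjusted p = 0.110). Parp9 overlaps Dtx3l on the opposite strand.

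Among the remaining induced genes, Rtp4 and Ifi27l2a were called and Ifi44, Ifi35, Xaf1 and Lgals3bp were not. Rtp4, a receptor transporter with antiviral activity, stood at 8.78, 5.48 and 9.13 CPM in controls, 9.58, 8.11 and 6.78 with PLX3397, 4.48, 4.53 and 6.04 with sorafenib and 4.62, 3.83 and 3.89 under both agents. All both-agent libraries were below all controls and all PLX3397 libraries, and it fell in both comparisons (-0.92 ± 0.21, adjusted p = 0.0102 versus control, and -0.99 ± 0.21, adjusted p = 0.0201 versus PLX3397). Rtp4 overlaps Masp1 on the opposite strand (0.783 FPKM) and Gm45338 on the same strand (0.167 FPKM). Ifi27l2a, a small hydrophobic protein of the IFI27 family, stood at 11.73, 8.35 and 12.5 CPM in controls, 9.40, 8.97 and 7.17 with PLX3397, 6.15, 4.18 and 7.03 with sorafenib and 4.18, 3.398 and 6.29 under both agents. Every library with sorafenib was below every library without it. Ifi27l2a fell with both agents versus control (-1.23 ± 0.24, adjusted p = 0.00540), while the sorafenib difference of -0.91 ± 0.24 did not pass (adjusted p = 0.0571).

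**Figure D4:**
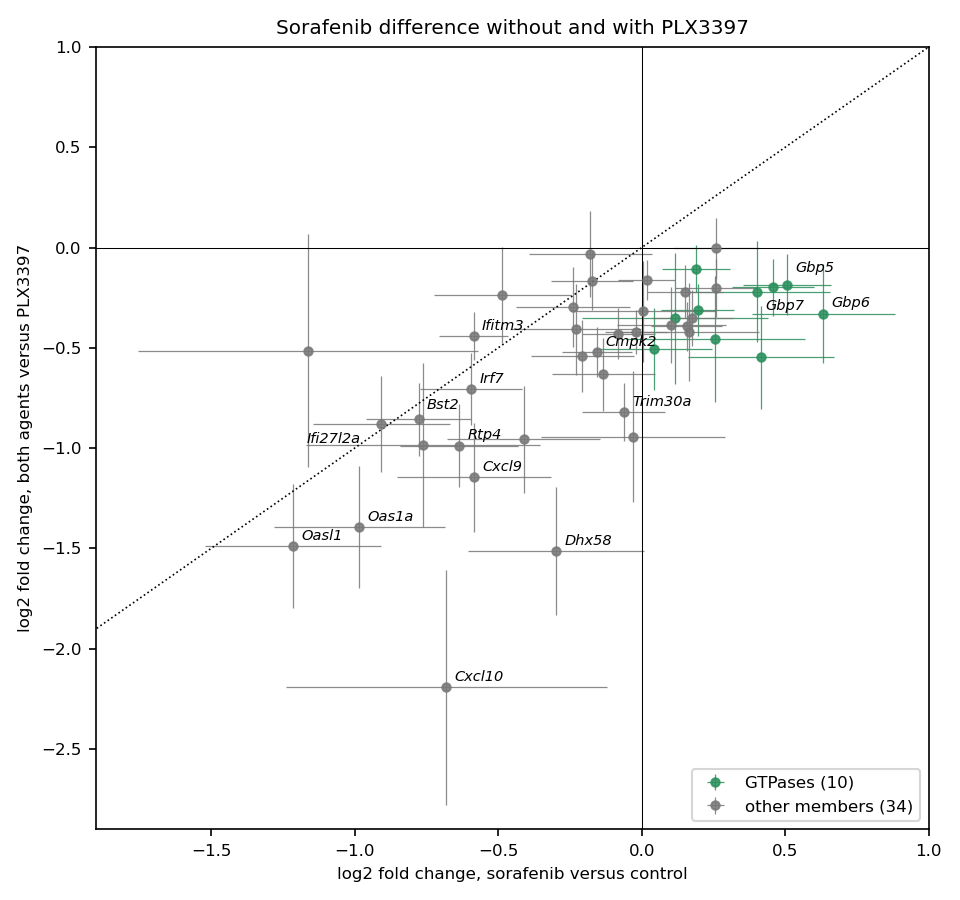
Log2 fold change of sorafenib versus control (horizontal axis) against that of both agents versus PLX3397 (vertical axis) for the 44 genes, with SE bars and a dotted line of equal values. These comparisons share no library. All 44 points lie below 0 on the vertical axis, and the 10 GTPases (green) lie to the right of 0 on the horizontal axis.

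Whether the effect of PLX3397 differed with and without sorafenib was tested as an interaction. By edgeR's quasi-likelihood test 0 members were called, as were 0% of all genes. DESeq2 and limma also called 0 members, while the Wald test of DESeq2 called 5 of all genes. At an unadjusted p under 0.05 there were 11 members, all with a negative interaction, against 5.82% of all genes in either direction and 3.24% negative. The median was -0.41 (-0.01 over all genes), and 38 of 44 lay below 0 (51.1% of all genes). The smallest p belonged to Trim30a (-0.76 ± 0.20, unadjusted p = 0.0022, adjusted p = 0.822). Next came Gbp7 (-0.66 ± 0.20), Gbp5 (-0.69 ± 0.22) and Parp9 (-0.55 ± 0.17), each with an adjusted p of 0.822. A different response to PLX3397 was thus not shown for any single member.

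The upstream part of the pathway was read from lists of other genes. Of 9 receptor and kinase genes, 0 were called by edgeR in any comparison, against 0% to 16.1% of all genes. At an unadjusted p under 0.05, 1 of the 9 was higher with both agents versus control (14.9% of all genes). None passed that threshold in the other comparisons, against 5.82% to 21.7% of all genes in either direction. A count of 0 among 9 genes does not show that their levels were unchanged. Ifnar1 stood at 26.3 ± 2.39 CPM (SD, n = 3) in controls and 24.0 ± 1.61 with both agents, and Ifnar2 at 22.2 ± 2.78 and 21.4 ± 2.55. For Ifngr1 these levels were 41.9 ± 4.77 and 37.1 ± 0.49 CPM, and for Ifngr2 192 ± 18.2 and 177 ± 18.8. Of the 11 interferon genes listed, 3 were present in the table and none of them passed the filter on low counts. Ifng was listed at 0 in 9 libraries and at 0.0615, 0.0917 and 0.186 CPM in 1 control, 1 PLX3397 and 1 both-agent library. Ifnb1 was not analysed here.

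The shares of all genes called lower were 1.14% with sorafenib versus control, 2.23% with both agents versus PLX3397 and 8.14% with both agents versus control, and the counts that follow stand beside them. Among 13 signalling factors and inhibitors, 3 were called lower with sorafenib versus control, 3 with both agents versus PLX3397 and 3 with both agents versus control. In each case these were Irf5 and Irf8, interferon regulatory factors of myeloid cells, and Ptpn6, the phosphatase SHP-1 of blood cells. Against control, sorafenib gave -1.19 ± 0.23 for Irf5 (adjusted p = 0.0203), -0.92 ± 0.20 for Irf8 (adjusted p = 0.0300) and -1.56 ± 0.27 for Ptpn6 (adjusted p = 0.0132). Of 16 tested genes that sense nucleic acids upstream of interferon, 1, 3 and 6 were called lower in these comparisons. The DNA sensor Cgas (-1.70 ± 0.35, adjusted p = 0.00664) and its adaptor Sting1 (-0.78 ± 0.20, adjusted p = 0.0186) fell with both agents versus control, as did Aim2, Ifi204, Ikbke and Tlr7. In a further list of 62 tested interferon-induced genes, 5, 9 and 9 were called lower, and Ifitm1 rose with both agents versus control (1.26 ± 0.33, adjusted p = 0.0203). For both agents versus control, 10 of the 62 were called in either direction, about the same share as the 16.1% of all genes. By direction, 9 of the 62 were lower (8.14% of all genes) and 1 was higher (7.97%). Epsti1, Lgals9, Oas1g, Psmb8 and Slfn2 fell with sorafenib versus control, by 0.50 (Lgals9) to 1.81 (Epsti1) on the log2 scale. Psmb8, an immunoproteasome subunit gene, lay at the threshold (adjusted p = 0.04996). With both agents versus PLX3397 or versus control, Phf11b, Phf11d, Shisa5, Slfn9, Tgtp2 and Trim30d also fell in at least 1 of the comparisons.

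Levels of several cell type markers differed between the groups, not all in the direction of the members. Their part in the results above was not tested. Of the 30 resident macrophage markers, edgeR called 14 lower with sorafenib versus control (1.14% of all genes). It called 21 lower with both agents versus PLX3397 (2.23%), 22 with both agents versus control (8.14%) and 0 in the other comparisons. At an unadjusted p under 0.05 there were 2 for PLX3397 versus control, 1 higher and 1 lower, against 12.3% of all genes. There were 15 lower for both agents versus sorafenib (3.53% of all genes lower) and 7 negative for the interaction (3.24%). Their mean relative to control (log2 scale) was -1.25, -1.29 and -0.58 with sorafenib and -1.73, -1.39 and -1.47 under both agents. Csf1r stood at 59.1, 48.3 and 53.7 CPM in controls, 52.4, 38.4 and 41.8 with PLX3397, 21.5, 19.6 and 30.4 with sorafenib and 11.99, 15.8 and 15.5 under both agents. At most 1 of the 30 markers was at 0 in any library. On the same log2 scale, the mean of the 34 members other than GTPases was -0.49, -0.17 and -0.21 in sorafenib replicates 1 to 3. Summed lymphocyte markers were 18.5 to 26.8 CPM in controls, 16.6 to 28.8 with PLX3397, 8.69 to 14.1 with sorafenib and 11.6 to 23.4 with both agents. Summed monocyte and neutrophil markers were 13.1 to 22.5, 15.3 to 25.7, 10.1 to 17.1 and 17.7 to 22.4 CPM in the same order. For both agents versus sorafenib, 19 of 23 lymphocyte markers and 9 of 13 monocyte and neutrophil markers were above 0, unlike most members. Endothelial markers summed to 2751 to 3144 CPM over all libraries, but single markers differed. With both agents versus control, 7 of 18 were called, 5 lower and 2 higher (16.1% of all genes). With both agents versus PLX3397, 5 were called, all lower (2.23% of all genes lower). With sorafenib versus control, 3 were called, 2 lower and 1 higher (2.65% of all genes). Summed cardiomyocyte markers were 58005 to 63207 CPM in controls and 59509 to 63706 with PLX3397, below all values with sorafenib (65477 to 71251) and with both agents (67194 to 78306). Of these 18 markers, 10 were called higher with both agents versus control (7.97% of all genes). Summed erythroid markers were 1604 to 1924 CPM with PLX3397 and 2398 to 4288 with both agents. All 7 were higher in every both-agent library than in every PLX3397 library (10.8% of all genes). Of 12 fibroblast markers, 3 were called lower with both agents versus control (8.14% of all genes). Of 7 tested plasmacytoid dendritic cell markers, 6 were below 0 with sorafenib versus control (51.8% of all genes). There were 4 with both agents versus PLX3397 (50.5%) and 2 with both agents versus sorafenib (50.2%). With both agents versus control, 1 was called lower (8.14% of all genes). This list held Cox6a2, at a mean of 790 CPM in controls, beside Siglech and Ccr9 near the floor at 0.41 and 0.12 CPM.

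Within groups, the members tended to be high or low in the same libraries. PLX3397 replicate 1 was the highest of its group in 29 of 44 members and replicate 3 the lowest in 33. Sorafenib replicate 2 was the highest in 29 and replicate 1 the lowest in 30. Among both-agent libraries replicate 2 was lowest in 25, and among controls replicate 2 was lowest in 22. By position, 17 of the 44 genes overlap another annotated gene, 7 of them on the same strand, and no source used here gives the use of strand in counting.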

How the data were processed

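Heart RNA of 12 mouse libraries, 3 in each of 4 groups taken from the sample titles, was analysed. The authors deposited 1 table with an estimated count and an FPKM value for each gene and library, per the file headers. The deposited counts were whole numbers, but 12143 values equalled 4 against 5303 equal to 3 and 3364 equal to 5, so the unit counted is uncertain. The authors' FPKM values are scaled for gene length and library size, and were used here only to compare levels between genes and in 2 alternatives. The submitters' processing notes name edgeR, DESeq2 and the mm10 build. No source used here gives the aligner, the counting program or the use of strand. Gene symbols and coordinates are those of the deposited table.

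The main test was made with edgeR 4.0.16 in R 4.3.3: filterByExpr (minimum count 10, minimum total 15), TMM scaling and a robust quasi-likelihood fit with 1 mean per group over all 12 libraries, which share 1 estimate of the spread. Adjusted p-values are two-sided and Benjamini-Hochberg adjusted over all 18897 genes of a comparison, with a threshold of 0.05. SEs come from the quasi-likelihood F statistic. The 44 members and all gene lists were chosen with earlier results of these data known, so no test over a list was made. Values in every library are given for members called in any comparison, the member with the highest mean FPKM of each role, and the 4 members with the smallest p of each comparison, 23 genes in all. Other genes are given by their difference alone. The fit was checked on simulated data. Alternatives were DESeq2 1.42.0 (size factors, Wald test), limma 3.58.1 on log2(FPKM + 0.5) and log2(FPKM + 0.1), other filters, counts divided by 4, removal of mitochondrial genes, the groups compared alone, the replicate number as a block, and leaving out each library. Total counts of 61626404 to 64537365 per library leave members with few counts, such as Oas3 and Cxcl10, with wide errors.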

Additional observations from a re-analysis of the deposited data

Results flagged for a closer look

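Trim30a is listed because its libraries separated in opposite directions, not for its signs. For PLX3397 versus control 35 of 44 members were above 0, while 51.5% of all genes were below. For both agents versus sorafenib 40 of 44 were below 0 (50.2% of all genes). For Trim30a, all 3 PLX3397 libraries lay above all 3 controls (7.73% of all genes). All 3 of its both-agent libraries lay below all 3 sorafenib libraries (6.21%). The share of all genes with both separations was not counted. The interaction was -0.759 on the log2 scale (unadjusted p = 0.0022 by edgeR's quasi-likelihood test), with an adjusted p of 0.822, so the difference did not pass the test.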

How the results depend on the processing

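For sorafenib versus control, the number of members called was 10 with the Wald test of DESeq2 (3 higher, 7 lower) and 1 with the replicate block (1739 and 221 of all genes, against 500), and the median log2 fold change was -0.193 with limma on log2(FPKM + 0.1), a scale that moved the median of all genes to -0.122. For both agents versus PLX3397, the number called was 16 with the Wald test of DESeq2 and 14 with limma on log2(FPKM + 0.1) (1212 and 651 of all genes, against 611). The cause of these changes was not tested. Leaving out 1 library at a time, the number called ranged from 0 to 5 for sorafenib versus control, from 1 to 11 for both agents versus PLX3397 and from 6 to 14 for both agents versus control, and was 0 for PLX3397 versus control, both agents versus sorafenib and the interaction. Over all genes the ranges in the same order were 27 to 1422, 177 to 642, 1261 to 3595, 0 to 578, 0 to 2 and 0 to 2. The medians ranged from -0.163 to -0.016, 0.117 to 0.293, -0.285 to -0.135, -0.522 to -0.364, -0.381 to -0.216 and -0.513 to -0.327 for sorafenib versus control, PLX3397 versus control, both agents versus sorafenib, both agents versus PLX3397, both agents versus control and the interaction. Of 24 called gene results under 22 settings each, 413 stayed on the same side of the threshold and 115 lost the call, and none changed sign. Calls held in all 22 settings for Trim30a between both agents and PLX3397, and for Ifitm3, Irf7, Oasl1, Bst2, Oas1a and Ifi27l2a between both agents and control. Libraries of different groups with the same replicate number did not deviate together (correlations of -0.0877 to 0.0621, 0 of 18 over 0.1), so the numbers were not taken to pair them. With the replicate as a block, 8 members were called between both agents and PLX3397 (433 of all genes, against 611). Between both agents and control 10 were called (2465 of all genes, against 3046), and 0 in the other comparisons but sorafenib versus control. A fit of only the groups compared could not be made for the interaction. The 3 libraries per group limit what can be detected for members with low counts.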
